A study of Mus musculus with 6 samples.

Results

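The genes described here encode secreted proteins of the extracellular matrix. From the 54532 genes of the deposited count table, 10 were taken by symbol: the thrombospondin gene Thbs1, the laminin chain genes Lama5, Lamb1 and Lamc1, fibronectin (Fn1), the collagen genes Col4a1, Col4a2 and Col18a1, perlecan (Hspg2) and nidogen 1 (Nid1). Each symbol had 1 row, and 6 of the 10 passed the filter on low counts. The members were chosen by their log2 fold changes and p-values in the comparison of the groups below, where Thbs1 had a small p, so their values between the groups are a description without a test. The cells were DC2.4, an immature dendritic cell line of the mouse, and the RNA was sequenced as messenger RNA libraries. In 3 libraries the cells carried the empty ptt5 vector, and in 3 they carried ptt5 labelled as overexpressing Vdbp, the vitamin D-binding protein, whose gene is Gc. All cells were transfected, passaged after 48 h and then placed under selection. Nothing in the labels says that replicates are separate cultures, and the spread between them may be technical.

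Basement membranes are thin sheets of matrix beneath epithelium and endothelium and around muscle and fat cells. Laminins, cross-shaped trimers of an alpha, a beta and a gamma chain, form one network, and type IV collagen, a trimer of alpha chains, forms another. Nidogen and the proteoglycans perlecan and agrin link the networks to each other and to cells. Thrombospondin 1 is a matricellular glycoprotein that binds CD47 and CD36 on cells, can activate latent TGF-beta, and is released by platelets and by macrophages and dendritic cells.

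The libraries held 15563800 to 16710975 counts. Gc had 0 counts in all 6, where 0 counts allow up to 0.177 to 0.192 CPM per library (3 counts, counting error only), so the groups are named by their labels. CPM are counts brought to a common library size after TMM scaling, a method that balances libraries on most genes. Of 9 dendritic cell markers, Itgax (49.6 ± 2.06 and 51.0 ± 5.25 CPM with empty vector and with the Vdbp label; SD, n = 3 each, as throughout) and Irf8 (59.2 ± 3.26 and 54.2 ± 5.02 CPM) were the most abundant per gene length. Flt3, Batf3, Xcr1, Clec9a, Ccr7 and H2-Ab1 had 0 to 6 counts per library. The 8 macrophage and monocyte markers summed to 4992 to 5714 CPM with empty vector and to 4730 to 5116 CPM with the Vdbp label. Deviations of genes from their mean also followed GC content to an extent that differed by library, with Spearman's rho across genes (which are not independent replicates) of −0.62 in empty-vector replicate 2, 0.73 in Vdbp replicate 1 and −0.40 in Vdbp replicate 3, and −0.07 to 0.07 in the others.

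Start-site sequence was taken from RefSeq on GRCm38.p6 for the laminin chain that was lower with the Vdbp label and for the collagen pair that is read in opposite directions. RefSeq promoter entries were matched for 7 of the 10 members, and none was matched for Thbs1, Lamc1 and Fn1. The 250 bases before the start of Lama5 (chr2:180225860-180226109, minus strand) are printed 5′ to 3′, with capitals at each GGGCGG or its reverse complement, the GC box bound by SP1:
Lama5: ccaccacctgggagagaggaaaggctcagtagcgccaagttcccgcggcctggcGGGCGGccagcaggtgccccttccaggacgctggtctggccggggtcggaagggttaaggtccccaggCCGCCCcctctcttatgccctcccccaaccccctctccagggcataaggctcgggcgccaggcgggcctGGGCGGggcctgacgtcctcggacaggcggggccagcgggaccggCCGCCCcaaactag
This stretch holds 4 GC boxes and 19 CpG, with a GC content of 72.4%. The box GGGCGG on either strand occurred in 32.7% of 32851 promoter stretches of the same length, whose median was 6 CpG and a GC content of 52.4%. No AP-1 motif TGANTCA, cyclic AMP element TGACGTCA, CCAAT box, TATA motif TATAAA or vitamin D receptor DR3 repeat was found there on either strand, motifs present in 6.75%, 1.55%, 33.8%, 12.4% and 0.00609% of promoter stretches. These traits were not particular to Lama5. Hspg2 had 5 GC boxes and 20 CpG, and GC boxes numbered 3 in Col18a1, 2 in Lamb1, 2 in Col4a2, 1 in Nid1 and 0 in Col4a1. All 7 matched stretches lacked the AP-1, cyclic AMP, TATA and DR3 motifs. Col4a1 and Col4a2 lie head to head on chromosome 8, and their first exons share 22 bases (chr8:11312805-11312826, plus strand shown), with a GC box in capitals:
Col4a1 and Col4a2: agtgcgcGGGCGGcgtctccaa
Reads over these bases cannot be assigned to 1 gene of the pair unless strand was used in counting, which is not stated.

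Lamc1, the laminin gamma 1 chain found in most laminins, supplied nearly all of the members' RNA. It is on chromosome 1 (153218922 to 153332786, minus strand). Replicates 1, 2 and 3 held 5469, 4908 and 5754 counts with empty vector, against 5638, 5059 and 4809 under the Vdbp label. The groups overlapped fully, at 324 ± 24.3 and 320 ± 26.8 CPM. Lamc1 made up 89.2% to 91.2% of the members' summed CPM in every library. Levels of different genes were compared as FPKM, which divides by gene length, and by this measure Lamc1 (39.0 ± 3.13 and 38.5 ± 3.10 FPKM) lay above 88.6% of the 12844 tested genes.

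The partners that a gamma 1 chain needs were scarce. Lama5, the laminin alpha 5 chain, had 0.221 ± 0.0419 FPKM with empty vector and 0.106 ± 0.0232 FPKM with the Vdbp label. Lamb1, the laminin beta 1 chain, had 0.0320 ± 0.0237 and 0.0471 ± 0.0235 FPKM. Per length, Lamc1 exceeded Lama5 by 152-fold to 441-fold over the 6 libraries. The other alpha chains did not fill the gap. Lama1 and Lama2 had 0 counts in all libraries, Lama3 0 or 1 per library and Lama4 1 count in all. Lamc1 exceeded the sum of all 5 alpha chains by 149-fold to 389-fold. Of the beta chains Lamb3 was the highest (0.346 ± 0.102 and 0.402 ± 0.0824 FPKM), and Lamb2 had 1 to 3 counts per library. Lamc1 exceeded the sum of the 3 beta chains, most of it Lamb3, by 67.3-fold to 118-fold. Against Lamb1 alone, at 3 to 12 counts per library, the ratio was 505-fold to 2186-fold. Lamc1 RNA was thus present at a moderate level in every library and alpha chain RNA was close to the detection limit in all but Lama5.

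**Figure D1:**
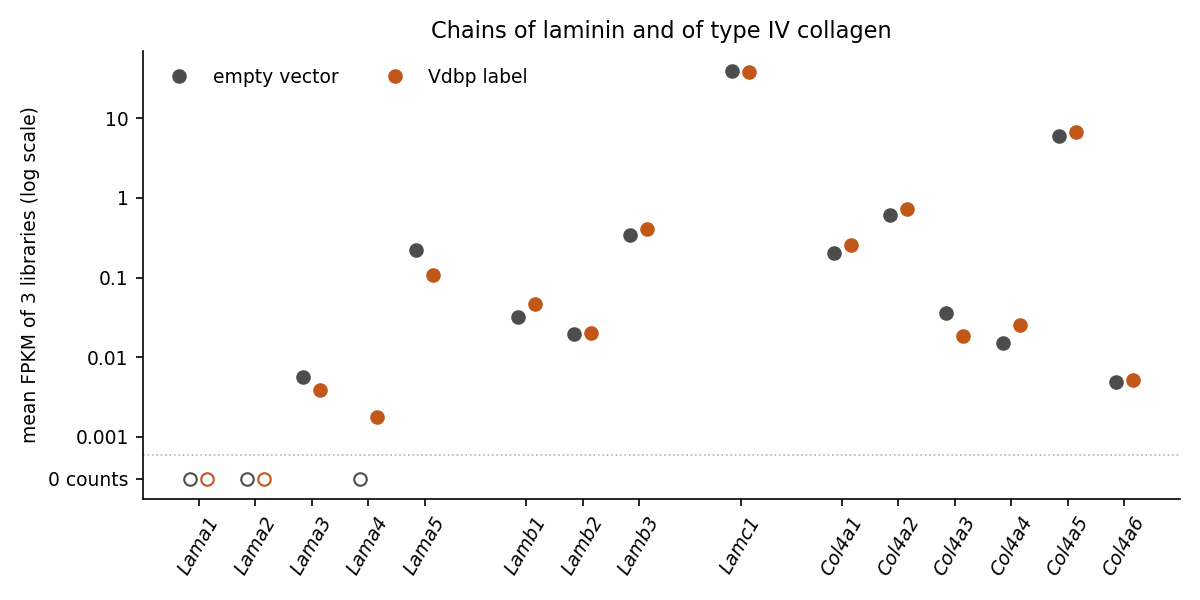
Mean FPKM of 3 libraries (log scale) for each laminin alpha and beta chain gene, Lamc1 and each type IV collagen chain gene, with empty vector in grey and the Vdbp label in orange, and open circles for genes with 0 counts. Lamc1 stood at 39.0 and 38.5 FPKM, while the highest alpha chain, Lama5, was at 0.221 and 0.106 FPKM, and Col4a5 was the highest type IV collagen chain.

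Over the 10 members the order of mean FPKM was Lamc1, Thbs1, Col18a1, Col4a2, Col4a1, Lama5, Lamb1, Hspg2, Fn1 and Nid1. Hspg2 and Fn1 were at the limit of detection, and their order differed by group. They had 0.00415 and 0 FPKM with empty vector, and 0.00435 and 0.00539 FPKM with the Vdbp label. Thbs1 (3.66 ± 0.0726 and 2.61 ± 0.0718 FPKM) was above Col18a1 (0.917 ± 0.0958 and 1.04 ± 0.216 FPKM) in every library. Col18a1 exceeded Col4a2 by 1.28-fold to 1.60-fold in each library. Col4a1 and Lama5 were not separated beyond their spread with empty vector (0.204 ± 0.0588 and 0.221 ± 0.0419 FPKM), while with the Vdbp label all 3 values of Col4a1 lay above all 3 of Lama5. Thbs1 was thus the only member besides Lamc1 above 2 FPKM in any library.

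**Figure D2:**
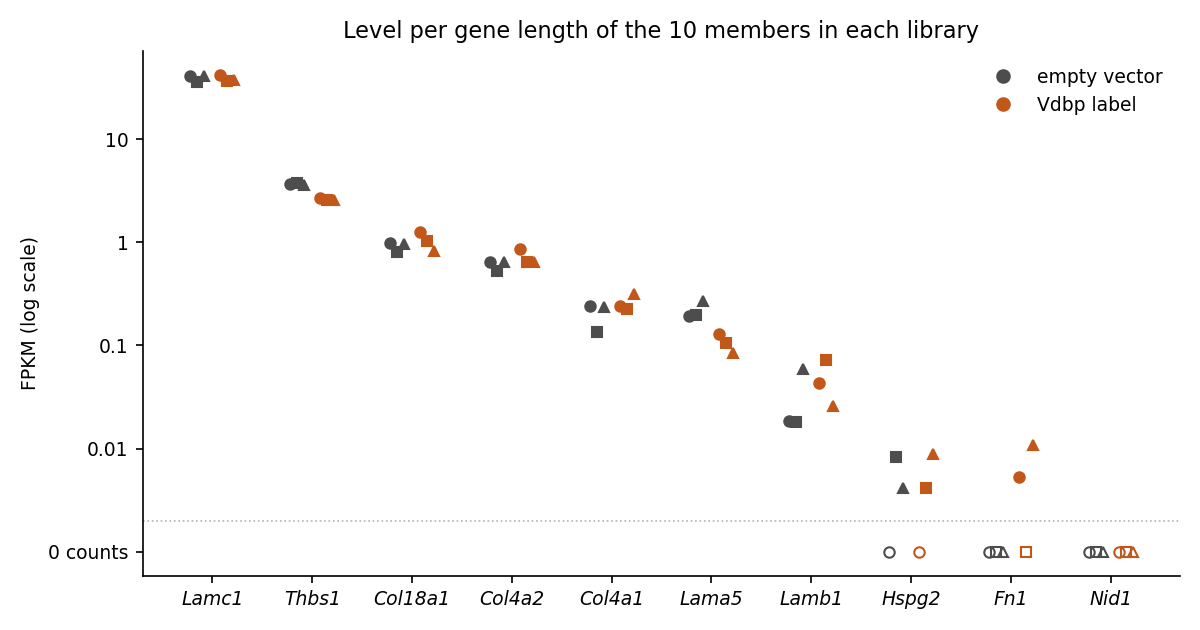
FPKM (log scale) of the 10 members in each library, ordered by mean, with empty vector in grey and the Vdbp label in orange, symbols for replicates 1, 2 and 3, and open symbols for 0 counts. The members span from about 39.0 FPKM for Lamc1 to 0 counts in all 6 libraries for Nid1.

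Next the groups were compared, the question the series states. Thbs1, on chromosome 2 (118111876 to 118127133, plus strand), was lower in the libraries labelled Vdbp. Replicates 1, 2 and 3 held 360, 381 and 371 counts with empty vector, against 265, 262 and 245 under the Vdbp label, or 22.1, 23.0 and 21.9 CPM and 16.5, 15.7 and 15.7 CPM. Every library labelled Vdbp (at most 16.5 CPM) was below every empty-vector library (at least 21.9 CPM). The means were 22.4 ± 0.57 and 15.9 ± 0.49 CPM, a log2 fold change of −0.49 (SE 0.11, 95% interval −0.73 to −0.24), or 0.713-fold. In bulk RNA, fewer cells with Thbs1 transcripts and fewer transcripts per cell cannot be told apart. Of the 8 macrophage and monocyte markers 7 were tested, and 3 of these (Lyz2, Adgre1 and Itgam, named after their values were seen) were lower in all 3 libraries labelled Vdbp, as Thbs1 was, where 5.61% of all tested genes were. Lyz2, which encodes lysozyme, was at 1964 ± 199 and 1583 ± 57.3 CPM (log2 fold change −0.31, SE 0.10), Adgre1, the F4/80 antigen, at 671 ± 16.0 and 583 ± 28.8 CPM (−0.20, SE 0.09), and Itgam, or CD11b, at 71.0 ± 5.80 and 61.7 ± 1.44 CPM (−0.20, SE 0.10). Csf1r, Cd68, Fcgr1 and Cd14 overlapped. Over the 7 tested markers 5 log2 fold changes were negative and 2 positive, with a median of −0.05. Of the 4 leukocyte markers, all tested, 2 log2 fold changes were positive and 2 negative, with a median of −0.05. Among them 1 was higher in all 3 libraries labelled Vdbp, where 5.26% of all tested genes were, and 0 were lower in all 3. No gene of either list was called by edgeR after adjustment. The part of these markers in the difference of Thbs1 was not tested.

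The spread of Thbs1 within a group was small for its depth. Its coefficient of variation was 2.53% with empty vector and 3.05% with the Vdbp label, below the 5.19% and 6.23% that counting alone gives at these counts. With 3 libraries a group such a coefficient is itself imprecise. Thbs1 was also chosen with its small p known, and a small spread lowers p, so nothing is read from this spread. The difference was −0.51 to −0.47 when any 1 library was left out, and −0.49 after a correction of each library for gene length and GC content. The GC content of its longest annotated transcript is 49.9%, the lowest of the members. A noncoding gene on the opposite strand, Gm29233, shares 208 exonic bases with Thbs1 and had 0 counts in all libraries.

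Lama5, on chromosome 2 (180176373 to 180225859, minus strand), was the other member that was lower in all 3 libraries labelled Vdbp. It encodes the alpha chain of the main laminin of adult vascular and epithelial basement membranes. The empty-vector libraries held 36, 38 and 52 counts, against 24, 20 and 15 in those labelled Vdbp, or 2.21, 2.29 and 3.08 CPM and 1.49, 1.20 and 0.958 CPM. The lowest empty-vector library was above the highest library labelled Vdbp. The means were 2.53 ± 0.476 and 1.22 ± 0.268 CPM, a log2 fold change of −1.05 (SE 0.28, 95% interval −1.67 to −0.44), or 0.483-fold. The counts are few, and counting alone gives a coefficient of variation of 15.4% and 22.5% against 18.8% and 22.1% observed. The log2 fold change was −1.17 with the length and GC correction and −1.22 to −0.88 when any 1 library was left out. As a share of Lamc1 per length, Lama5 went from 0.478%, 0.562% and 0.656% with empty vector to 0.309%, 0.287% and 0.227% with the Vdbp label.

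**Figure D3:**
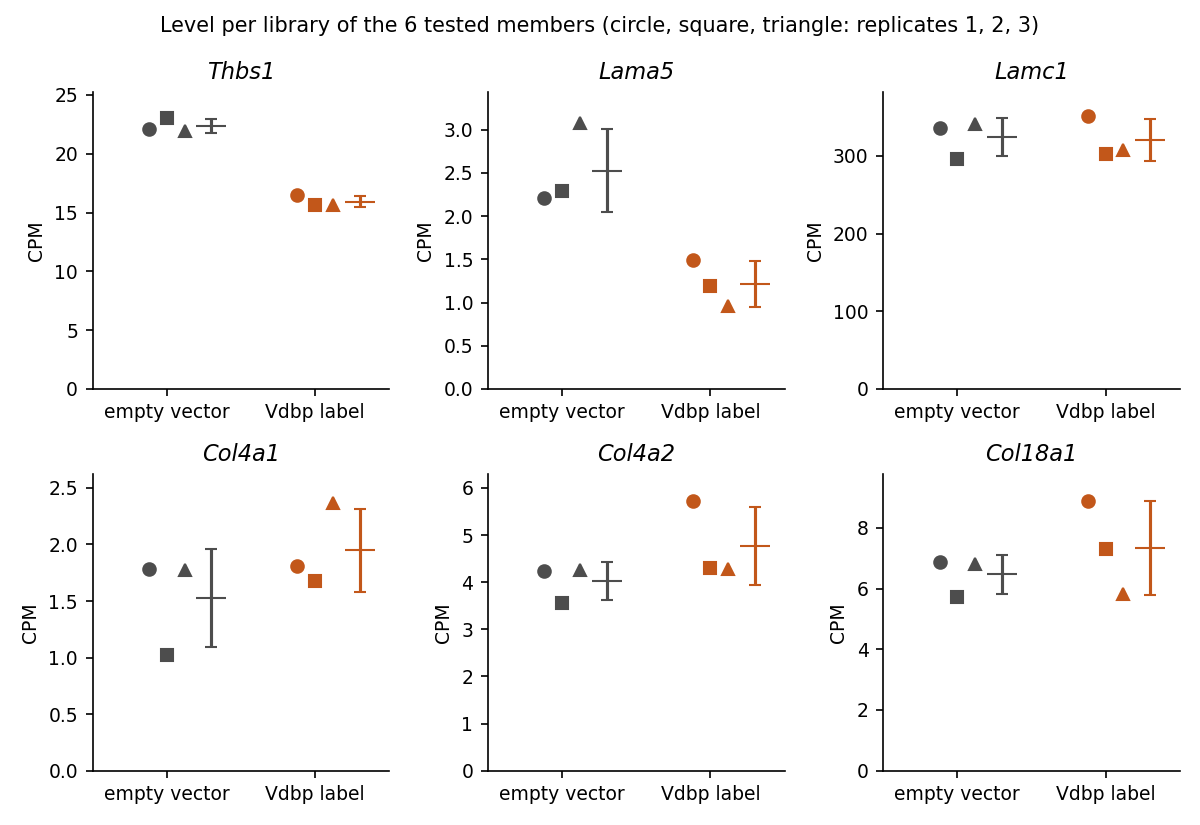
CPM (linear axes from 0) of the 6 members that passed the filter on low counts, in each of 3 empty-vector (grey) and 3 Vdbp-labelled (orange) libraries, with the mean and SD of each group beside the points. Thbs1 and Lama5 were lower in all 3 libraries labelled Vdbp, Lamc1, Col4a1 and Col18a1 overlapped between the groups, and Col4a2 lay just above the empty-vector values.

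The laminin gamma chain did not share the pattern of Lama5. The log2 fold change of Lamc1 was −0.02 (SE 0.10, 95% interval −0.24 to 0.20), and the interval corresponds to 0.849-fold to 1.15-fold. Counting error was small at this depth, at 1.36% and 1.39%, so its spread of 7.49% and 8.36% within the groups was mostly between libraries. Lamb1 did not pass the filter. The empty-vector libraries held 3, 3 and 10 counts, against 7, 12 and 4 in those labelled Vdbp, and the summed counts gave exact Poisson intervals of 0.184 to 0.522 and 0.301 to 0.712 CPM, which overlap and cover counting error only.

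Of the type IV collagen members, Col4a1 and Col4a2 had higher means in the libraries labelled Vdbp, with intervals of the log2 fold change that included 0. Col4a2 (chromosome 8, 11312805 to 11449287, plus strand) encodes the alpha 2 chain and had 69, 59 and 72 counts in the empty-vector libraries, against 92, 72 and 67 in those labelled Vdbp. After scaling these were 4.24, 3.56 and 4.26 CPM and 5.73, 4.30 and 4.28 CPM. The groups did not overlap, but only by the margin between 4.26 and 4.28 CPM. The log2 fold change was 0.25 (SE 0.20, 95% interval −0.19 to 0.68) and was 0.09 with the length and GC correction. Without Vdbp replicate 1, the highest library, it was 0.10. Col4a1 (chromosome 8, 11198423 to 11312826, minus strand), the alpha 1 chain, had 29, 17 and 30 counts and 29, 28 and 37 counts. Its groups overlapped, with a log2 fold change of 0.35 (SE 0.30, 95% interval −0.31 to 1.00), which was 0.13 with empty-vector replicate 2 left out and 0.19 with Vdbp replicate 3 left out.

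The alpha 1 chain outnumbers the alpha 2 chain in the usual type IV collagen trimer, and the RNA had the opposite order. Per length, Col4a2 exceeded Col4a1 by 2.04-fold to 3.91-fold in the 6 libraries, with means of 3.10 ± 0.704 with empty vector and 2.84 ± 0.769 with the Vdbp label. The chain gene with the most RNA was neither of these but Col4a5, the alpha 5 chain, at 6.05 ± 0.108 and 6.68 ± 0.278 FPKM, or 84.8% to 89.3% of all type IV collagen chain FPKM. It exceeded Col4a2 by 7.48-fold to 11.5-fold. The chains that pair with alpha 5 in trimers were at 1 to 7 counts per library (Col4a3), 0 to 6 (Col4a4) and 0 to 2 (Col4a6).

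Col18a1 (chromosome 10, 77052178 to 77166548, minus strand) encodes collagen XVIII, a heparan sulfate proteoglycan of basement membranes whose end fragment is endostatin. Counts were 112, 95 and 115 in the empty-vector libraries, against 143, 122 and 91 in those labelled Vdbp, or 6.88, 5.74 and 6.80 CPM and 8.90, 7.29 and 5.81 CPM. The groups overlapped because Vdbp replicate 3 lay among the empty-vector values. Its highest library was Vdbp replicate 1 and its lowest empty-vector replicate 2, the libraries at the ends of the GC trend, and its longest transcript has a GC content of 60.8%. The log2 fold change was 0.18 (SE 0.19, 95% interval −0.23 to 0.59), and it was 0.02 with the length and GC correction and 0.02 without Vdbp replicate 1. The part of GC content in the difference of Col18a1 was not tested. Slc19a1 overlaps the gene on the opposite strand but shares 0 exonic bases with it.

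The remaining members were at the limit of detection. Nid1, which links laminin gamma 1 to type IV collagen, had 0 counts in all 6 libraries, which allows up to 0.0255 to 0.0275 FPKM per library (3 counts). Fn1, the fibronectin gene, had 0, 0 and 0 counts in the empty-vector libraries, against 1, 0 and 2 in those labelled Vdbp. Hspg2, the core protein of perlecan, had 0, 2 and 1 counts and 0, 1 and 2 counts. No difference between the groups could be read at this depth for these genes or for Lamb1.

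**Figure D4:**
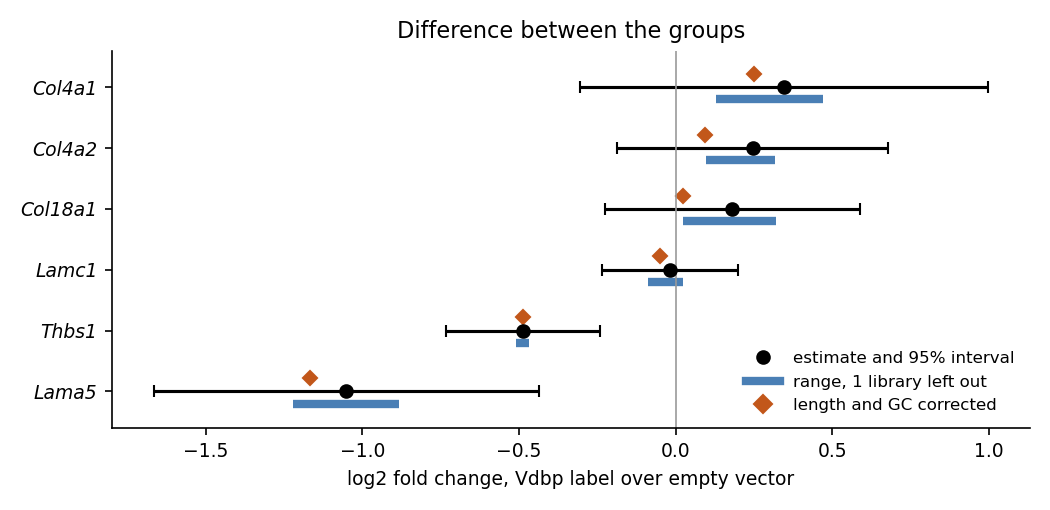
Log2 fold change of the libraries labelled Vdbp over the empty-vector libraries for the 6 members that passed the filter, with the 95% interval (black), the range when any 1 library is left out (blue bar) and the value with the length and GC correction (orange diamond). The intervals of Thbs1 and Lama5 lay below 0, and those of Lamc1, Col4a1, Col4a2 and Col18a1 included 0; the members were chosen with these values known.

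Across all genes the edgeR quasi-likelihood test called 0 of 12844 tested genes at an adjusted p (Benjamini-Hochberg) under 0.05, which is 0% of the tested genes, and 0 of the 6 tested members. At an unadjusted p under 0.05 edgeR had 687 genes (5.35%), DESeq2 called 11 genes after adjustment (0.0856%) and limma-voom 0. The length and GC offset gave 2 (0.0156%) and the fit without a filter 89 of 24135 (0.369%), and no member was called in any of these. The libraries of the groups did not overlap for 3 of the 6 tested members, 2 lower (Thbs1 and Lama5) and 1 higher (Col4a2), and for 10.9% of all tested genes, 5.61% lower and 5.26% higher. Nothing is read from this count, since the members were chosen with the comparison known.

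Genes with a pattern like that of Thbs1 were looked for over the 6 libraries, as the root-mean-square difference of log2(CPM + 0.5), each gene centred on its own mean. Among 9549 protein-coding genes of at least 5 CPM the closest were Cxcl3 (0.08), Cxcl2 (0.08), Tnfrsf8 (0.08), Pfkfb3 (0.08) and Zfp74 (0.08), where the median gene differed by 0.27. Cxcl3 and Cxcl2 encode chemokines that attract neutrophils. Cxcl3 was at 18.3 ± 0.975 and 14.3 ± 0.0185 CPM, and Cxcl2 at 624 ± 36.3 and 463 ± 26.1 CPM. Tnfrsf8, which encodes the receptor CD30, was at 8.89 ± 0.361 and 7.01 ± 0.227 CPM. Pfkfb3, an enzyme that regulates glycolysis, was at 111 ± 8.63 and 86.6 ± 1.93 CPM. Zfp74, a zinc finger protein, was at 6.75 ± 0.749 and 4.77 ± 0.240 CPM. Since the pattern of Thbs1 is mostly the difference between the groups, this measure picks genes that were lower with the Vdbp label, and it is a description over 6 libraries.

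**Figure D5:**
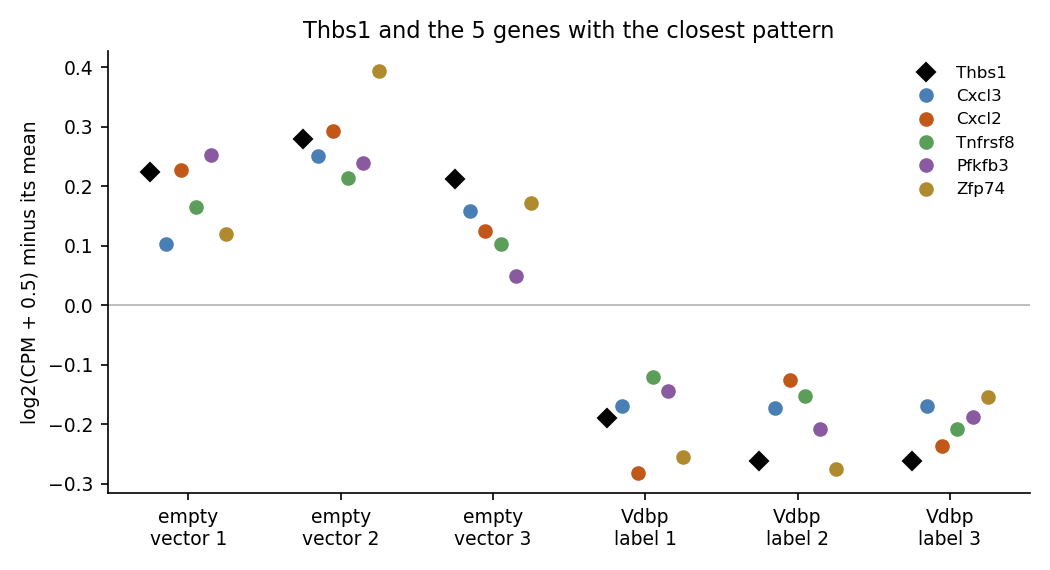
Log2(CPM + 0.5) minus its mean over the 6 libraries for Thbs1 (black diamonds) and the 5 genes closest to it (circles), by library. All 6 genes were above their mean in the 3 empty-vector libraries and below it in the 3 libraries labelled Vdbp.

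Other genes of the same matrix, their receptors and the enzymes that make collagen were taken from lists, 103 symbols in all, of which 99 were in the table and 53 passed the filter on low counts. No gene of the 53 was called higher or lower by edgeR (0% of tested genes were called, lowest adjusted p 0.781), and DESeq2 called none of them. By edgeR 5 of the 53 were at an unadjusted p under 0.05, where 5.35% of all tested genes were. Their median log2 fold change was 0.08, and −0.01 over all tested genes. The groups did not overlap for 6 of them (11.3%), close to the 10.9% of all tested genes.

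Among other thrombospondins Thbs3 was the 1 tested gene of 4, at 4.22 ± 0.958 and 4.47 ± 0.612 CPM, and its groups overlapped. Thbs2 and Thbs4 had 0 counts in all libraries. Of the other laminin chains Lamb3 was at 2.30 ± 0.667 and 2.67 ± 0.547 CPM, and its groups overlapped. Of the other basement membrane collagens 3 of 9 were tested. Col4a5 had 668, 690 and 676 counts in the empty-vector libraries, against 698, 785 and 703 in those labelled Vdbp (40.9 ± 0.85 and 45.1 ± 1.74 CPM, log2 fold change 0.14, SE 0.10), without overlap after scaling. Col15a1, a relative of collagen XVIII, had 3, 11 and 12 counts and 21, 23 and 11 counts (log2 fold change 1.11, SE 0.46), and its groups overlapped.

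Among linkers, proteoglycans and matricellular proteins 5 of 18 genes were tested, and none was called. Ecm1, extracellular matrix protein 1, had the highest level per length (77.3 ± 3.06 and 71.8 ± 14.4 CPM), and Tinagl1 the smallest p (5.61 ± 1.70 and 7.01 ± 2.20 CPM). Agrn, the gene of agrin, was chosen after its values were seen: in contrast to Hspg2 it had 976 to 1465 counts per library, at 65.7 ± 6.35 and 72.7 ± 16.0 CPM. Nid2, the other nidogen, had 1 count in all, and Sparc, a collagen-binding protein of basement membranes, and Pxdn, the enzyme that crosslinks type IV collagen, had 0 counts in all libraries. These were also chosen after their values were seen.

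Of 24 cell surface receptor genes 18 were tested, 10 with a positive and 8 with a negative log2 fold change (median 0.04). Itgb1, the beta chain of most matrix integrins, had the highest mean level per length, at 117 ± 5.12 and 110 ± 12.9 FPKM (480.1 ± 24.0 and 451 ± 51.9 CPM). Lrp1, named after its values were seen, was close to it at 98.6 ± 8.69 and 106 ± 21.0 FPKM. In Vdbp replicate 1 Lrp1 was the higher of the pair (130 against 95.2 FPKM). Itga6, a chain of laminin-binding integrins, had the smallest p, with 169, 180 and 160 counts in the empty-vector libraries, against 113, 129 and 132 in those labelled Vdbp (10.2 ± 0.714 and 7.72 ± 0.70 CPM). All 3 libraries labelled Vdbp were lower (log2 fold change −0.41, SE 0.15, and −0.37 with the length and GC correction; edgeR adjusted p 0.781 over all tested genes). The Thbs1 receptors Cd47 and Cd36 were named after their values were seen, and both overlapped between the groups. Cd47 was at 164 ± 2.86 and 154 ± 10.7 CPM (log2 fold change −0.09, SE 0.09). Cd36 was at 80.9 ± 13.5 and 61.4 ± 11.8 CPM (−0.40, SE 0.15, 95% interval −0.73 to −0.07). The log2 fold change of Cd36 was −0.27 with the length and GC correction, and its edgeR adjusted p was 0.781 over all tested genes.

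Of 20 genes for collagen folding, modification, crosslinking and export in the count table, 15 were tested (median log2 fold change 0.12). P4hb, the beta subunit of prolyl 4-hydroxylase, had the highest level per length (1208 ± 58.3 and 1317 ± 69.2 CPM). Loxl3, a lysyl oxidase, had the smallest p (2.53 ± 0.165 and 3.35 ± 0.528 CPM, log2 fold change 0.41, SE 0.22), without overlap. Serpinh1, the collagen chaperone HSP47, had 0 counts in all libraries and was chosen after its values were seen. Of genes linked to TGF-beta, SRF and YAP, 9 of 16 in the table were tested (median log2 fold change 0.07). Tgfb1, the main TGF-beta of leukocytes, had the highest level per length (236 ± 22.1 and 272 ± 44.4 CPM). Ltbp3, which binds latent TGF-beta, had the smallest p (54.1 ± 5.40 and 67.5 ± 12.1 CPM, log2 fold change 0.32, SE 0.14), and its log2 fold change was 0.18 with the length and GC correction.

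Markers of other cell types were also summed. Of 8 fibroblast and mesenchymal markers, Col1a2, Col3a1, Lum and Thy1 had 0 counts in all libraries, and the 8 summed to 1.66 to 2.48 CPM with empty vector and 1.18 to 2.43 CPM with the Vdbp label. The 7 epithelial markers summed to at most 0.319 CPM in any library, with 4 of them at 0. Of 8 endothelial markers Tie1 and Emcn had 0 counts, and the sum was 42.2 to 44.3 CPM and 43.3 to 57.2 CPM, of which Vwf alone gave 41.1 ± 0.912 and 46.4 ± 7.97 CPM. The 6 megakaryocyte and platelet markers summed to 668 to 711 CPM and 607 to 659 CPM, of which Pf4 gave 683 ± 22.4 and 629.7 ± 26.1 CPM, while Gp1bb had 0 counts in all libraries. The summed ranges of this last list, which are mostly Pf4, did not overlap between the groups. Of its 4 tested genes 2 had a positive and 2 a negative log2 fold change. Only 1 of the 4 was lower in all 3 libraries labelled Vdbp, where 5.61% of all tested genes were. The part of this list in the difference of Thbs1 was not tested.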

How the data were processed

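Gene counts and FPKM were analysed for 6 DC2.4 libraries, 3 per group. The authors deposited whole-number counts per Ensembl gene and FPKM for the same genes, which equalled the counts divided by gene length and by 1 constant per library (largest relative gap 1.34e-13). The submitters' processing notes name HISAT2 and StringTie, without versions; no source used here gives the counting tool, strand setting, build or annotation. GENCODE M21 (GRCm38) held 99.9% of the gene identifiers, 98.3% of these with the same start and end, as were all 10 members, and that release gave transcript GC content and exon overlap.

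Counts were tested with edgeR 4.0.16 in R 4.3.3 (filterByExpr at 10 counts, a total of 15 and a proportion of 0.7; TMM; quasi-likelihood F test, two-sided, Benjamini-Hochberg over 12844 genes, threshold 0.05), with group as the only term. SEs and 95% intervals of log2 fold changes are the model's, and levels are means ± SD. Library totals of 15563800 to 16710975 counts put 3 counts at 0.177 to 0.192 CPM. P-values rest on the spread between these samples alone, which may be technical. Other settings were scaling by total count, RLE or upper quartile, DESeq2 1.42.0 on the filtered genes, limma-voom (limma 3.58.1), other filters, the replicate number as a block, an offset that takes out each library's smoothed dependence on GC content and length (mgcv 1.9.3), limma on log2(FPKM + 1) and log2(FPKM + 0.1) with a filter at 0.5 FPKM, and each library left out. The procedure was tested on simulated data. The members and lists were chosen with earlier results of these data known. Besides the members, the genes named were, per list, the tested gene with the highest FPKM and that with the smallest p, and the 5 genes most like Thbs1; others are said to have been chosen after their values were seen, and 1 gene that this rule names is not reported here. Ratios of chains were not tested between the groups.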

Additional observations from a re-analysis of the deposited data

How the results depend on the processing

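No member and no gene of the 99 was called in the edgeR fit or in any of the 19 alternatives. Over all genes the count called was 0 in the edgeR fit, 11 with DESeq2, 89 without a filter on low counts, 2 with the length and GC offset and 4 with limma on unfiltered log2(FPKM + 1), and 0 to 22 when a library was left out (1 without empty-vector replicate 2 and 22 without empty-vector replicate 3). Genes at an unadjusted p under 0.05 numbered 687, and 1375 without the filter, 1140 with the offset, 1032 with limma on unfiltered log2(FPKM + 1), and 258 (without empty-vector replicate 2) to 1532 (without Vdbp replicate 3) when a library was left out, with 382 without empty-vector replicate 1 and 1158 without empty-vector replicate 3. The cause of these differences was not tested. The replicate number as a block gave 0 calls, 695 genes at an unadjusted p under 0.05 and log2 fold changes of −0.49 for Thbs1 and −1.05 for Lama5, and with the offset and the block together 0 and 869. Deviations of same-numbered libraries correlated at 0.14, 0.03 and −0.27 for replicates 1, 2 and 3, so the numbers are not taken to pair the libraries.

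The log2 fold change kept its sign in all 19 alternatives for Thbs1 (−0.51 to −0.37), Col4a2 (0.09 to 0.32) and Col18a1 (0.02 to 0.32), and in the 17 that kept the gene for Lama5 (−1.22 to −0.14) and Col4a1 (0.07 to 0.47); Lamc1 changed sign in 4 of 19 (−0.09 to 0.02). The smallest sizes for Thbs1, Lama5 and Col4a1 came from log2(FPKM + 1), a scale that understates the change of low genes; the pseudocount is above the levels of Lama5 and Col4a1 and below that of Thbs1. All alternatives refit libraries whose results were known when the members were chosen, so the kept signs are a description. For the 4 members that did not pass the filter the depth allows no comparison.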
